A study of Mus musculus with 4 samples.

Results

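Surface proteins are the handles by which progenitor cells of the prostate epithelium are sorted. The transcripts of 7 such proteins, Dpp4, Cd24a, Cd44, Prom1, Itga2, Kit and Alcam, were followed here through the adult mouse prostate and through cultured urogenital sinus. They were taken by name, as genes used to mark or enrich prostate progenitors, and are 7 of the 31053 genes counted.

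The study used droplet-based scRNA-seq (10x Genomics 3′ v3) of sorted EPCAM+ cells. Adult prostates came from male P2-Runx1:RFP mice of the ICR (CD-1) strain, over 8 weeks old, in which the P2 promoter of Runx1 drives a red fluorescent protein. RFP therefore reports the activity of that promoter and not the RUNX1 protein, and an RFP+ fraction can also hold leukocytes, in which Runx1 is active. Mice were intact or had been castrated for over 4 weeks, which withdraws androgen. Each of 3 runs used pooled mice, with a separate barcode for RFP+ and RFP- cells of each lobe, the anterior (AP), the dorsolateral (DLP) and the ventral (VP). Castrated cells with a lobe of their own came from run 2, and intact DLP RFP+ cells from run 3. The explant library held EPCAM+ cells of ICR (CD-1) urogenital sinus taken at E15.5 of embryonic life and grown with 10 µM dihydrotestosterone, collected at days 0, 1, 3 and 6. The labels give no reporter for these embryos.

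The adult libraries held 824, 2194 and 1673 assigned cells in runs 1, 2 and 3 and the explant library 5198, at median depths of 9750.0 to 14785 unique molecular identifiers (UMIs) per cell. Any 2 libraries shared 0 to 6 cell barcodes. Runx1 itself was higher in RFP+ than in RFP- luminal-like cells of the AP by 2.89 log2 units (edgeR, adjusted p = 0.000837), while the difference was 0.49 in basal-like cells of the AP and 1.28 in luminal-like cells of the VP, which passed only with a block for run (edgeR, adjusted p = 0.0187 and 0.0470). Cells were classed as basal-like or as luminal-like clusters Lum-A to Lum-F by marker genes that do not include the 7 members. Levels are counts per 1000000 UMIs (CPM), with UMIs summed over all cells of a population within a run, and in such sums fewer cells of a type and less RNA per cell cannot be told apart.

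Each of these proteins has a separate role. DPP4 (CD26) is a serine protease that trims dipeptides from peptide hormones and chemokines, CD24 is a small glycoprotein with a lipid anchor, and CD44 binds hyaluronan. PROM1 (CD133) sits on membrane protrusions, the integrin α2 subunit encoded by Itga2 binds collagen together with β1, KIT is the receptor for stem cell factor, and ALCAM (CD166) binds CD6 and itself. The prostate epithelium has an outer basal and an inner luminal layer, and antibodies to such proteins are used to enrich cells that form new ducts or organoids.

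In GRCm38 the genes lie at chr2:62330073-62412231 (Dpp4), chr10:43578284-43584265 (Cd24a), chr2:102811141-102901665 (Cd44), chr5:43993620-44102032 (Prom1), chr13:114833081-114932100 (Itga2), chr5:75574916-75656722 (Kit) and chr16:52248996-52454074 (Alcam). The sort rested on a Runx1 promoter, so the RefSeq promoter windows of the members, in GRCm38.p6, were searched on both strands for TGTGGT and TGCGGT, letters that RUNX proteins recognise. A window runs from 250 bases before a gene's start to 50 after it. Windows were found for 6 members, Dpp4, Cd44, Prom1, Itga2, Kit and Alcam, 8 windows in all. A match was found in 1 of them, a Prom1 window, while 22.4% of all 32851 promoters hold one. The windows of the members that differed most with RFP, in opposite directions, are shown 5′ to 3′ on the minus strand with the match in capitals, Prom1 from chr5:44101687-44101986 and Cd44 from chr2:102901616-102901915.
Prom1: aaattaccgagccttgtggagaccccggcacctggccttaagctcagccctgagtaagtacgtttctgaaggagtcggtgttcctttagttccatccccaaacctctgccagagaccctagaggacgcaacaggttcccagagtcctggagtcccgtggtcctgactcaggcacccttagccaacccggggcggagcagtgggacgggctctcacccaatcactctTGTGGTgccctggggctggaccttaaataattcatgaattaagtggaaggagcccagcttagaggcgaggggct
Cd44: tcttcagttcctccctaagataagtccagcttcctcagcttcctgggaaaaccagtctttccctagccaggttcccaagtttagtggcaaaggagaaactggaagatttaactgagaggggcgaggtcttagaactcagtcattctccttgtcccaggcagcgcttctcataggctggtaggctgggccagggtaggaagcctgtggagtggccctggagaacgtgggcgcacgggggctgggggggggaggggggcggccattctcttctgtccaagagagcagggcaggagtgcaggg
The Prom1 match, TGTGGT on the gene's own strand, begins at position -24 from the start that this RefSeq window uses. That start lies inside the gene interval given above, which spans the annotated transcripts. A match describes the letters only.

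**Figure D1:**
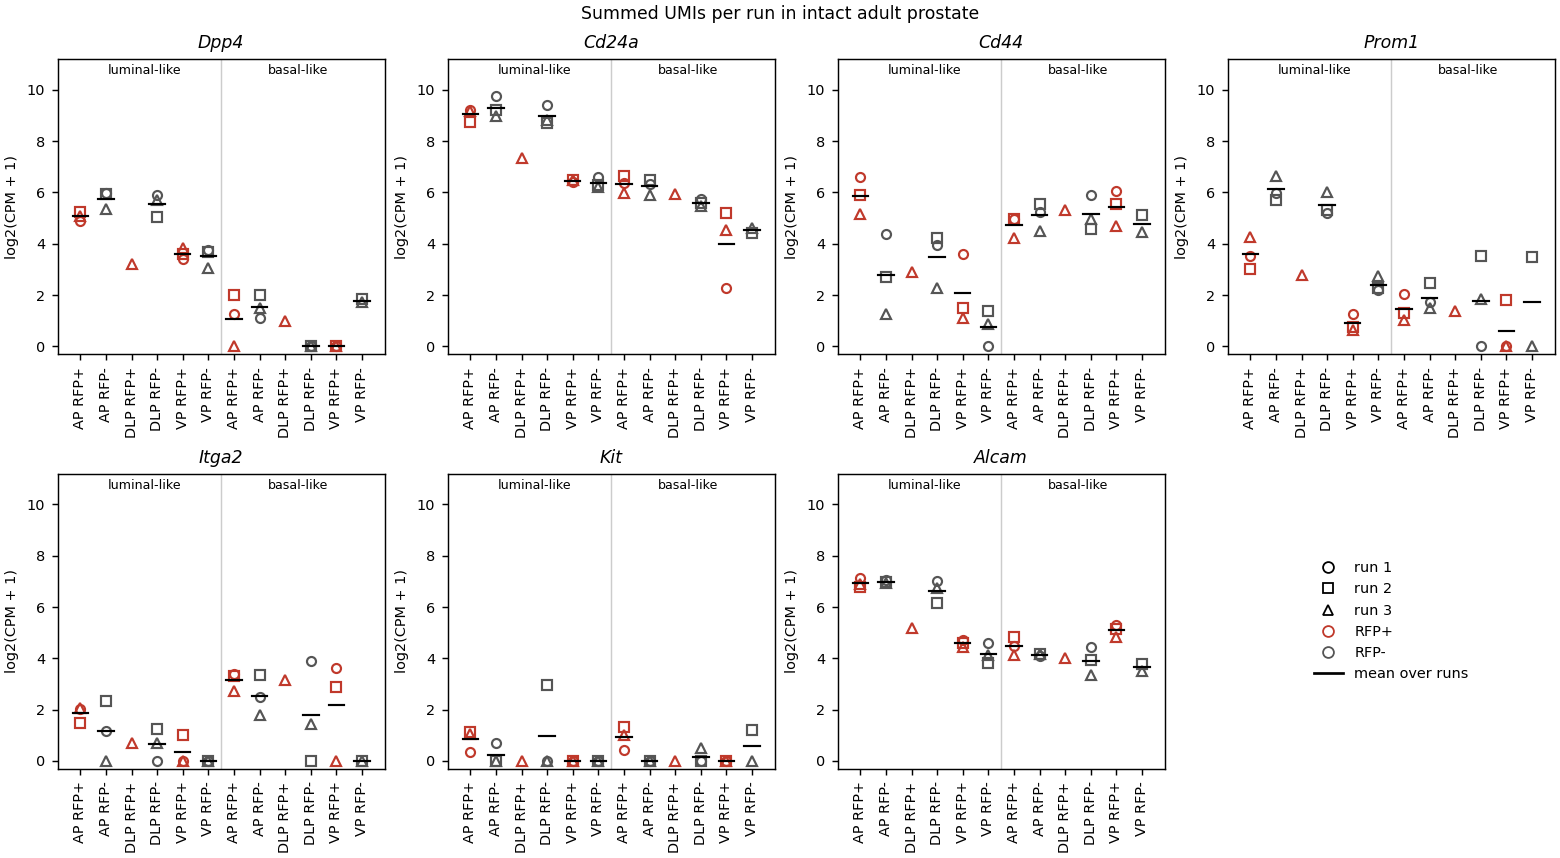
Levels of the 7 genes in intact adult prostate, as log2(CPM + 1) on the vertical axis, with 1 point per run and a bar at the mean over runs, by lobe, RFP and compartment on the horizontal axis. Dpp4, Cd24a, Prom1 and Alcam are highest in luminal-like cells of the AP and RFP- luminal-like cells of the DLP.

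The luminal-like cells of the AP and the RFP- luminal-like cells of the DLP held the highest levels of 4 members. Prom1 was at 71.3 ± 25.8 CPM in RFP- cells of the AP (SD, n = 3 runs) and at 45.99 ± 15.7 CPM in RFP- cells of the DLP, and these neighbours in the order overlapped between runs. RFP+ luminal-like cells of the AP followed at 11.99 ± 5.67 CPM, and no other intact population exceeded a mean of 5.80 CPM. Alcam was at 125 ± 5.24 CPM in RFP- and 123 ± 14.95 CPM in RFP+ luminal-like cells of the AP and at 101 ± 28.4 CPM in RFP- luminal-like cells of the DLP, which overlap, and had means of 35.1 CPM or less elsewhere.

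Cd24a was at 650.5 ± 186 CPM in RFP- and 536 ± 89.8 CPM in RFP+ luminal-like cells of the AP and at 517 ± 145 CPM in RFP- luminal-like cells of the DLP, which overlap. The single run of DLP RFP+ luminal-like cells was at 161 CPM, and VP luminal-like and all basal-like populations had means of 87.0 CPM or less. Dpp4 was highest in RFP- cells of the AP at 54.0 ± 12.5 CPM, followed by RFP- cells of the DLP at 47.6 ± 13.5 CPM and RFP+ cells of the AP at 32.8 ± 4.00 CPM. Each of these overlapped with its neighbour. The VP fractions were at 11.3 ± 1.79 and 10.6 ± 2.87 CPM and overlapped with each other. Basal-like cells held Dpp4 at a mean of at most 2.45 CPM, with 0 UMIs in the DLP RFP- and VP RFP+ fractions.

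Cd44 and Itga2 followed another order. Cd44 was highest in RFP+ luminal-like cells of the AP, at 62.9 ± 30.6 CPM, then in basal-like cells, where the means of 6 populations lay between 26.0 and 45.3 CPM, and the runs of these neighbours overlapped. The other luminal-like populations were at 0.810 to 12 CPM. Itga2 was scarce throughout, with 8.09 ± 2.11 CPM in AP RFP+ basal-like cells at the top and 0 UMIs in VP RFP- cells of either compartment. Kit was at or below a mean of 2.25 CPM in every population.

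By cluster, Prom1 and Cd44 were high in different luminal-like cells. Prom1 was at 83.2 ± 22.3 CPM in Lum-B-like cells against 1.54 ± 0.248 CPM in Lum-D-like cells (SD, n = 3 runs). Cd44 was at 5.16 ± 0.689 CPM in Lum-B-like and 84.7 ± 40.9 CPM in Lum-D-like cells. Alcam was at 134 ± 17.8 and 149 ± 32.7 CPM in these clusters, whose runs overlapped, and at 18.9 ± 0.625 CPM in Lum-A-like cells. Compartments and clusters were made from the same cells, so these differences are described and not tested. The 50 most abundant genes took 69.5% of all UMIs in Lum-A-like cells, against 28.0% in Lum-D-like and 32.2% in Lum-B-like cells, and a CPM value is lower where a few transcripts take much of the total.

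The share of cells with a UMI was also compared at equal depth. After thinning each cell to 3000 UMIs, 20.1% of intact Lum-B-like cells had a Prom1 UMI, against 0.264% of Lum-D-like, 0.194% of Lum-A-like and 0.758% of basal-like cells. Unthinned, the shares were 63.2%, 1.76%, 3.63% and 2.39%, at median depths of 19643, 11242, 48150 and 8925 UMIs. Lum-C-like cells were between these, at 4.23% thinned and 36.8% unthinned (31560 UMIs), and 23.5% of the 26 mesonephric-like cells had a Prom1 UMI after thinning (88.5% unthinned). How far free RNA accounts for the low shares was not tested. Hematopoietic-like cells, a class outside the epithelium, were at 0.842% thinned and 3.62% unthinned (6798 UMIs). Fibroblast-like cells were at 9.13% and endothelial-like cells at 4.96% thinned. A Cd44 UMI was found in 19.3% of Lum-D-like and 8.42% of basal-like cells after thinning (46.6% and 25% unthinned), against 0.395% of Lum-A-like cells (4.21% unthinned). The 19 intact Lum-E/F-like 1 cells were at 23.5% for Cd44 after thinning. For Itga2 the thinned shares were 1.36% in basal-like, 1.01% in Lum-D-like and 0.0105% in Lum-A-like cells. Higher Itga2 shares were found in small classes, 9.90% in the Lum-E/F-like 1 cells and 4.87% in an unnamed epithelial cluster of 53 cells. Fibroblast-like cells were at 1.77% and endothelial-like cells at 1.05%. Cells under 3000 UMIs were left out of the thinned shares, 37 of 386 among Lum-B-like, 13 of 455 among Lum-D-like, 3 of 523 among Lum-A-like and 30 of 1712 among basal-like cells.

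**Figure D2:**
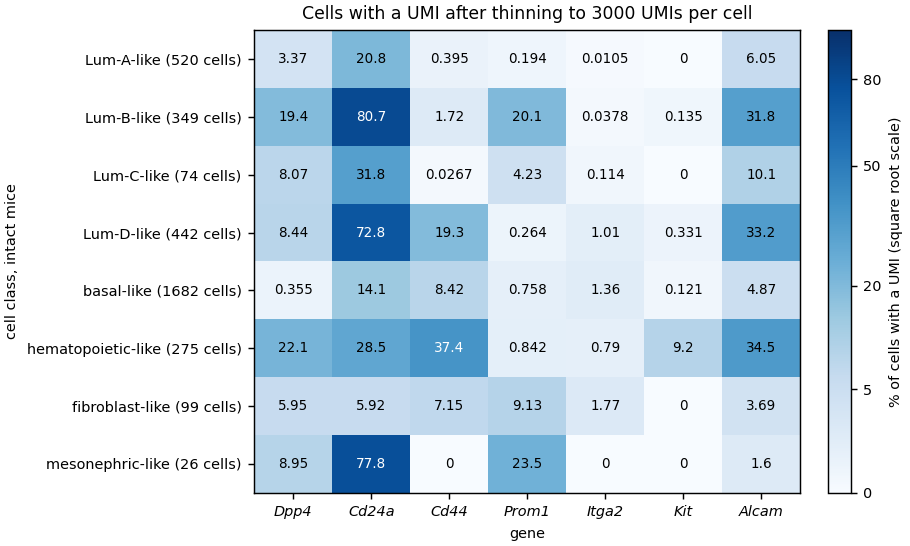
Percent of intact cells of each class (rows, with the number of cells of at least 3000 UMIs) that had a UMI of each gene (columns) after thinning to 3000 UMIs, shown as colour. Prom1 reaches 20.1% in Lum-B-like cells, Cd44 19.3% in Lum-D-like and 37.4% in hematopoietic-like cells, and Kit 9.20% in hematopoietic-like cells. Lum-E/F-like, endothelial-like and unnamed cells are not shown.

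Whether the markers follow the activity of the Runx1 promoter was asked first in luminal-like cells of the AP. Cd44 was higher and Prom1 and Dpp4 were lower in RFP+ cells, whereas Cd24a and Alcam did not pass the test. The test called 24.6% of all genes (13.1% higher and 11.4% lower) in this comparison, whose median gene was 0.12 log2 units higher on the CPM scale, so the count of 3 among the 5 members tested is read against a wide background. Itga2 and Kit were below the filter on low counts, with 20 and 16 UMIs of Itga2 and 5 and 1 UMIs of Kit in RFP+ and RFP- cells.

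Cd44, the hyaluronan receptor, was at 95.1, 59.3 and 34.3 CPM in RFP+ cells of runs 1, 2 and 3 and at 19.6, 5.47 and 1.41 CPM in RFP- cells. Every RFP+ value was above every RFP- value, although the level differed between runs in both fractions. The difference was 2.61 ± 0.51 log2 units (SE; edgeR's quasi-likelihood test, adjusted p = 0.00585, 3 runs per group), a 6.11-fold change. Without run 2 the edgeR adjusted p was 0.0941, and the call was kept in 9 of 10 alternatives. A limit of 20 cells per sum leaves this comparison unchanged for every member, since its smallest sum held 46 cells.

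Prom1 ran the other way, at 10.5, 7.19 and 18.2 CPM in RFP+ cells and 62.6, 50.9 and 100.3 CPM in RFP- cells. The fractions did not overlap. The difference was -2.68 ± 0.36 log2 units, or 6.399-fold lower in RFP+ cells (edgeR, adjusted p = 0.00120), and it passed in 10 of 10 alternatives. Dpp4, the peptidase, was at 28.6, 36.5 and 33.3 CPM in RFP+ cells against 62.0, 60.4 and 39.5 CPM in RFP- cells. These groups did not overlap either, but run 3 of the RFP- cells came near the RFP+ values. The difference of -0.90 ± 0.25 log2 units passed the test (edgeR, adjusted p = 0.0272) and did not pass with DESeq2 (0.0649), without run 1 (0.119), without run 2 (0.103), without run 3 (0.0549) or with fewer than 7500 UMIs per cell (0.278).

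Cd24a and Alcam were close between the fractions. Cd24a was at 599, 433 and 576 CPM in RFP+ and 858, 595 and 498 CPM in RFP- cells, which overlap, with a difference of -0.41 and an interval of -0.85 to 0.03 (2 SE; edgeR, adjusted p = 0.219). For Alcam the values were 139, 110.2 and 119 CPM against 130.3, 123 and 120.0 CPM, and the difference was -0.17 with an interval of -0.47 to 0.14 (edgeR, adjusted p = 0.484). Changes of the size seen for Prom1 lie outside both intervals.

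The fractions held different clusters. Lum-D-like cells were 181, 81 and 128 of the 211, 100 and 146 RFP+ luminal-like cells of the AP in runs 1, 2 and 3, and Lum-B-like cells were 68, 121 and 43 of the 77, 149 and 46 RFP- cells. Within 1 cluster of at least 10 cells in each fraction, the fractions could be set side by side for Lum-B-like cells of run 1 and Lum-A-like cells of run 2. In the Lum-B-like cells, 24 RFP+ and 68 RFP- cells were at 57.6 CPM (40.4 to 79.8) and 73.7 CPM (59.9 to 89.7) for Prom1, with exact Poisson intervals. In the same cells Dpp4 was at 48.0 CPM (32.4 to 68.6) and 72.2 CPM (58.6 to 88.1), and both of these pairs of intervals overlapped. Alcam, at 75.3 CPM (55.3 to 100.1) and 127 CPM (108 to 147), and Cd24a, at 772 CPM (704 to 844) and 954 CPM (902 to 1007), had intervals apart and lower in RFP+ cells. Cd44 was at 6.41 CPM (1.75 to 16.4), from 4 of 24 cells, and at 6.70 CPM (3.06 to 12.7), where all 9 UMIs lay in 1 of 68 cells. Itga2 and Kit had at most 1 UMI per fraction. In the 11 RFP+ and 20 RFP- Lum-A-like cells of run 2 the intervals of every member overlapped, with Prom1 at 1.69 CPM (0.0429 to 9.43) and 4.65 CPM (1.27 to 11.9). Poisson and binomial intervals cover counting error only.

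Leukocyte transcripts moved with RFP in the same sums. The 7 hematopoietic markers (Ptprc, Cd74, Itgam, Cd3d, Cd3e, Tyrobp, Nkg7) summed to 108, 234 and 20.9 CPM in the RFP+ luminal-like cells of the AP, with 5, 5 and 2 of 7 detected, and Cd3d and Nkg7 were at 0 in each run. In RFP- cells the sums were 8.86, 8.35 and 0 CPM, with 3, 3 and 0 detected and Ptprc, Cd3d and Nkg7 at 0 in each run. Their part in the result was not tested. The 4 endothelial markers summed to 7.77, 11.98 and 7.51 CPM in RFP+ and 41.1, 27.6 and 25.4 CPM in RFP- cells, with 3, 2 and 2 and 4, 2 and 2 of 4 detected.

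Genes around the members were counted from the same test. Of 14 ligands, partners and relatives 4 could be tested, of which 2 rose and 1 fell in RFP+ cells. Kitl, which encodes the ligand of KIT, was at 67.6 against 9.01 CPM on average and was higher by 2.55 ± 0.33 log2 units (edgeR, adjusted p = 0.000948). Itgb1, which encodes the integrin β1 subunit that pairs with α2, was the other that rose (0.71, edgeR, adjusted p = 0.0491), and Dpp9, an intracellular relative of Dpp4, fell (-0.86, edgeR, adjusted p = 0.0486). Of 9 other progenitor surface markers 7 could be tested, and 4 were higher and 0 lower. Among those that rose were Ly6a, the gene for the surface antigen Sca-1, from 64.3 to 712 CPM (3.24 ± 0.82 log2 units, edgeR, adjusted p = 0.0183), the integrin β4 gene Itgb4 (2.15, edgeR, adjusted p = 0.00654) and the tetraspanin gene Cd9 (2.12, edgeR, adjusted p = 0.00134). The lists' median log2 differences were 0.40 and 2.12, beside -0.01 over all genes tested.

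**Figure D3:**
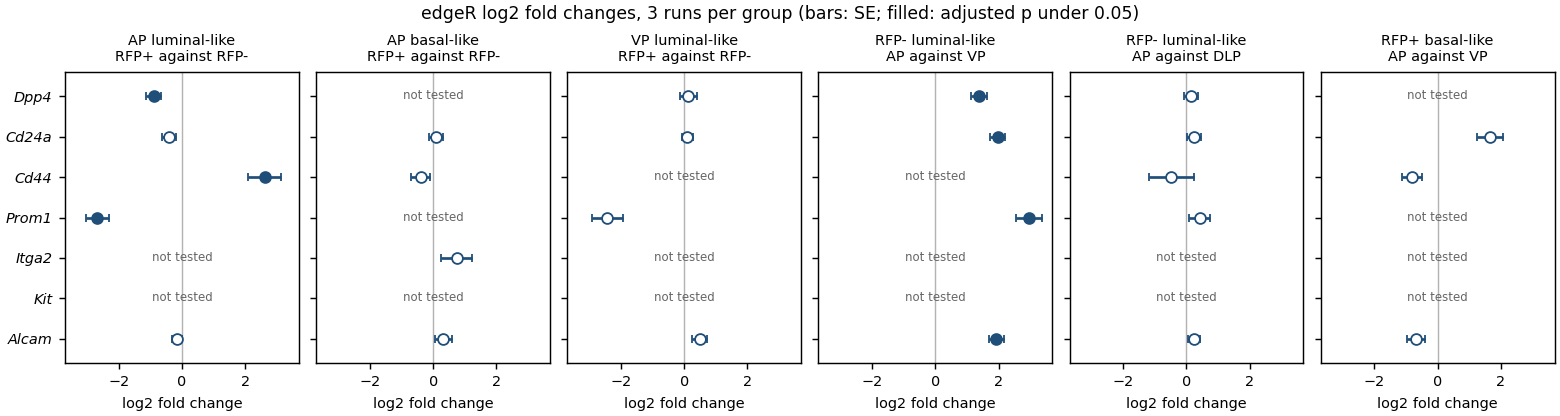
edgeR log2 fold changes (horizontal axis) of each member tested (rows), with SE bars, in 6 comparisons, filled where the adjusted p is under 0.05. Filled points appear in the AP luminal-like comparison by RFP, for Cd44, Prom1 and Dpp4, and in the AP against VP comparison of RFP- luminal-like cells, for Prom1, Cd24a, Alcam and Dpp4.

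In basal-like cells of the AP, none of the 4 members tested passed between RFP+ and RFP- cells, where 0% of 8497 genes passed with edgeR. DESeq2 called 0 genes as well, 89 genes had an unadjusted p under 0.05 with edgeR and 37 with DESeq2, and 41 genes passed with a block for run, none of them a member. Itga2, the collagen receptor subunit, was at 9.63, 8.95 and 5.68 CPM in RFP+ and 4.65, 9.17 and 2.43 CPM in RFP- cells, which overlap, with a difference of 0.74 and an interval of -0.22 to 1.70 log2 units. Cd44 was at 30.6, 29.8 and 17.6 CPM in RFP+ against 37.2, 45.9 and 21.9 CPM in RFP- cells, a difference of -0.40 with an interval of -0.98 to 0.19. For Alcam the difference was 0.32 (-0.22 to 0.87) and for Cd24a 0.08 (-0.35 to 0.51). The adjusted p of all 4 was 1.00 by edgeR.

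The RFP difference of Cd44 was itself compared between the compartments of the AP. It was larger in luminal-like than in basal-like cells by 2.96 ± 0.65 log2 units (edgeR interaction, adjusted p = 0.0178), in a test that called 6.84% of 9817 genes. The other 5 members tested did not pass, with Prom1 at -2.37 (edgeR, adjusted p = 0.116). Between AP and VP luminal-like cells, none of the 5 members tested had RFP differences that were called apart (edgeR, adjusted p from 0.126 for Dpp4 to 0.946 for Prom1), where 4.73% of genes were. These tests of a difference were chosen after the data were seen.

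In luminal-like cells of the VP, 0 of 4 members tested passed between RFP+ and RFP- cells, against 0.289% of all genes (23, all lower, and 144 with a block for run). Prom1 was at 1.42, 0.689 and 0.579 CPM in RFP+ cells and 3.61, 3.88 and 5.71 CPM in RFP- cells, from 14 and 21 UMIs in all. The fractions did not overlap and the difference was -2.44 ± 0.49 log2 units (edgeR, adjusted p = 0.119), with an adjusted p of 0.0200 with a block for run and 0.0296 with no filter on low counts. Cd24a was at 83.8, 89.4 and 87.6 CPM against 95.6, 77.5 and 73.4 CPM, and its interval ran from -0.26 to 0.44 log2 units. The difference of Dpp4 was 0.13 (-0.40 to 0.66) and that of Alcam 0.48 (0.02 to 0.95), with an edgeR adjusted p of 1.00 and 0.838. Run 1 gave 10 luminal-like cells of the VP RFP- fraction.

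Between lobes, RFP- luminal-like cells of the AP were compared with those of the VP. All 4 members tested were higher in the AP, where the test called 15.4% of all genes (7.5% higher and 7.86% lower). A gene could pass the filter on low counts through 1 lobe alone, and Prom1 had 347 UMIs in the AP and 21 in the VP. The shared direction of these members is therefore not independent of the filter. Cd44, Itga2 and Kit were below it, with 51, 16 and 1 UMIs in the AP and 6, 0 and 0 in the VP. On the CPM scale the median gene was itself 0.99 log2 units higher in the AP, and the fitted differences below are relative to that shift. Prom1 was at 62.6, 50.9 and 100.3 CPM in the AP and at 3.61, 3.88 and 5.71 CPM in the VP, a fitted difference of 2.96 ± 0.40 log2 units (edgeR, adjusted p = 0.00113). Cd24a, at 858, 595 and 498 against 95.6, 77.5 and 73.4 CPM, differed by 1.97 ± 0.24 (edgeR, adjusted p = 0.000712).

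Alcam, the CD6 ligand, was at 130.3, 123 and 120.0 CPM in the AP and 23.4, 13.2 and 16.3 CPM in the VP. The fitted difference was 1.93 ± 0.23 log2 units (edgeR, adjusted p = 0.000760). Dpp4 was at 62.0, 60.4 and 39.5 CPM against 12.6, 11.95 and 7.34 CPM, and differed by 1.39 ± 0.25 (edgeR, adjusted p = 0.00515), a call that was lost without run 2 (adjusted p = 0.110). For all 4 the lobes did not overlap. Of the partner list 1 of 5 tested fell, Prom2, the relative of Prom1 (-3.31, edgeR, adjusted p = 0.000222), and of the other markers 1 of 5 rose, Itga3 (1.96, adjusted p = 0.00914).

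RFP- luminal-like cells of the AP and the DLP were not told apart by any of 5 members tested, beside 0.682% of all genes (0.483% higher and 0.198% lower) called (55, and 550 with a block for run). The intervals of the differences were -0.29 to 0.60 for Dpp4, -0.19 to 0.68 for Cd24a, -0.24 to 1.08 for Prom1, -0.12 to 0.60 for Alcam and -1.91 to 0.95 log2 units for Cd44, with edgeR adjusted p from 0.761 to 0.916. The wide interval of Cd44 rests on 51 and 39 UMIs. In the DLP, Prom1 was at 35.5, 38.5 and 64.0 CPM and Dpp4 at 58.4, 32.4 and 51.9 CPM.

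In RFP+ basal-like cells, 0 of 3 members tested passed between the AP and the VP, beside 0.542% of all genes (0.185% higher and 0.357% lower) called (41, and 508 with a block for run). Cd24a was at 81.8, 97.8 and 61.9 CPM in the AP and at 3.83, 35.5 and 22.3 CPM in the VP, where run 1 had 24 cells. The lobes did not overlap, and the difference was 1.66 ± 0.41 log2 units (edgeR, adjusted p = 0.151), which passed with a block for run (3.86e-05), with DESeq2 (0.0496) and with no filter on low counts (9.17e-06). Cd44 differed by -0.81 (-1.42 to -0.20) and Alcam by -0.67 (-1.26 to -0.09), with edgeR adjusted p of 0.477 and 0.596. Neither list had a call in the VP or basal-like comparison by RFP or between AP and DLP.

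Castration was examined within run 2, 1 library with no replicate, so values carry exact Poisson intervals and no test. In RFP+ luminal-like cells of the AP, Alcam, Cd24a and Itga2 had intervals above those of intact cells. Alcam went from 110.2 CPM (94.8 to 127) in 100 intact cells to 339 CPM (319 to 359) in 193 castrated cells, a ratio of 3.07. Cd24a went from 433 CPM (402 to 466) to 861 CPM (830.2 to 893). For the collagen receptor gene Itga2 there were 3 and 51 UMIs, or 1.80 CPM (0.370 to 5.25) and 14.9 CPM (11.1 to 19.5).

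These 3 of 7 members stood beside 25.5% of all genes (16.4% higher and 9.1% lower) with intervals apart, and the median gene moved by 0.11 log2 units. Here and below, shares by intervals and median genes cover only genes that reach a minimum UMI count in the 2 sums together. In this comparison they were 9362 of 31053 genes. The 7 members were counted without that limit, so the member counts and the shares are not fully alike. Cd44, at 59.3 CPM (48.2 to 72.2) and 81.3 CPM (72.1 to 91.4), and Dpp4, at 36.5 and 53.6 CPM, had intervals that overlapped. Their log2 ratios were 0.46 (0.12 to 0.80) and 0.55 (0.13 to 1.00), so overlap of the levels does not mean no change. After thinning, an Alcam UMI was found in 30.6% of intact and 61.01% of castrated cells, at median depths of 9982 and 11908 UMIs and against 63.0% and 92.7% unthinned. The castrated cells were mostly of another cluster, Lum-E/F-like 1 (159 cells), where the intact cells were mostly Lum-D-like (81), so treatment and cluster cannot be told apart. Within Lum-D-like cells of that population Alcam was at 163 CPM (138 to 191) in 81 intact and 218 CPM (154 to 299) in 17 castrated cells, and these intervals overlap. Cd24a, higher in the whole population, was not higher within them, at 577 CPM (529 to 629) in intact and 429.6 CPM (338 to 538) in castrated cells, and Dpp4 was at 40.7 CPM (28.7 to 56.1) and 5.73 CPM (0.145 to 31.9), from 37 and 1 UMIs. Cd44 was at 89.1 CPM (70.8 to 111) and 45.8 CPM (19.8 to 90.3). Each of these pairs overlaps, and Itga2 had 1 UMI in each.

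In RFP- luminal-like cells of the AP, Prom1 was lower in castrated cells, with 177 UMIs in 149 intact and 7 in 49 castrated cells. The levels were 50.9 CPM (43.7 to 59.0) and 7.29 CPM (2.93 to 15.02). Cd24a was also lower, from 595 CPM (569.8 to 621) to 437 CPM (397 to 481), while Alcam was higher, from 123 CPM (112 to 136) to 223 CPM (194 to 255). Intervals were apart for 20.6% of all genes (6.74% higher and 13.9% lower), and the median gene moved by -0.21 log2 units. Again the clusters differed, with 121 Lum-B-like cells among the intact and 35 Lum-E/F-like 1 cells among the castrated. In the DLP RFP- fraction, where 11.4% of all genes (2.56% higher and 8.86% lower) were apart and the median gene moved by -0.29 log2 units, Cd24a went from 413 CPM (380.4 to 447) to 284 CPM (239 to 335). No other member was apart there, and Prom1 was at 38.5 CPM (29.1 to 49.9) and 14.2 CPM (5.71 to 29.2), a log2 ratio of -1.44 (-2.82 to -0.30).

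The VP RFP+ luminal-like cells showed 5 of 7 members higher after castration, beside 59.5% of all genes (57.2% higher and 2.23% lower) apart. The median gene was 1.79-fold higher, and most cells were Lum-A-like before (171 cells) and Lum-E/F-like 2 after (104 cells). Alcam was at 23.1 CPM (19.99 to 26.5) and 116 CPM (103 to 130.4), Cd24a at 89.4 CPM (83.2 to 95.9) and 386 CPM (362 to 412), and Dpp4 at 11.25 CPM (9.13 to 13.7) and 47.1 CPM (38.9 to 56.5). Prom1 went from 6 to 24 UMIs, or from 0.689 CPM (0.253 to 1.499) to 9.75 CPM (6.25 to 14.5), and Cd44 from 1.84 CPM (1.05 to 2.98) to 8.53 CPM (5.28 to 13.0). With CPM computed without the 50 most abundant genes, the log2 ratio of Dpp4 was 1.06 in place of 2.07, that of Cd24a 1.11 in place of 2.11 and that of Alcam 1.33 in place of 2.33, and the intervals of Cd44 overlapped.

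In AP RFP+ basal-like cells 1 of 7 members was apart, where 18.4% of all genes (3.69% higher and 14.7% lower) were and the median gene moved by -0.29 log2 units, with Alcam at 27.6 CPM (19.4 to 38.1) and 53.8 CPM (41.8 to 68.3). Cd24a was at 97.8 CPM (81.7 to 116) and 109 CPM (91.8 to 129), which overlap. That value depends on how a few cells are clustered, and with fewer than 7500 UMIs per cell its intervals were apart the other way, with a log2 ratio of -1.03 in place of 0.16. In VP RFP+ basal-like cells 0 of 7 were apart, against 15.7% of all genes (5.56% higher and 10.2% lower). The log2 ratio of Cd24a there was 0.93 (0.12 to 1.74). Castrated DLP RFP+ luminal-like cells, with no intact counterpart in run 2, held the highest Cd44 of any adult basal-like or luminal-like population of at least 10 cells, 276 CPM (257 to 297), together with Itga2 at 63.3 CPM (54.1 to 73.7) and Alcam at 305 CPM (284 to 327).

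**Figure D4:**
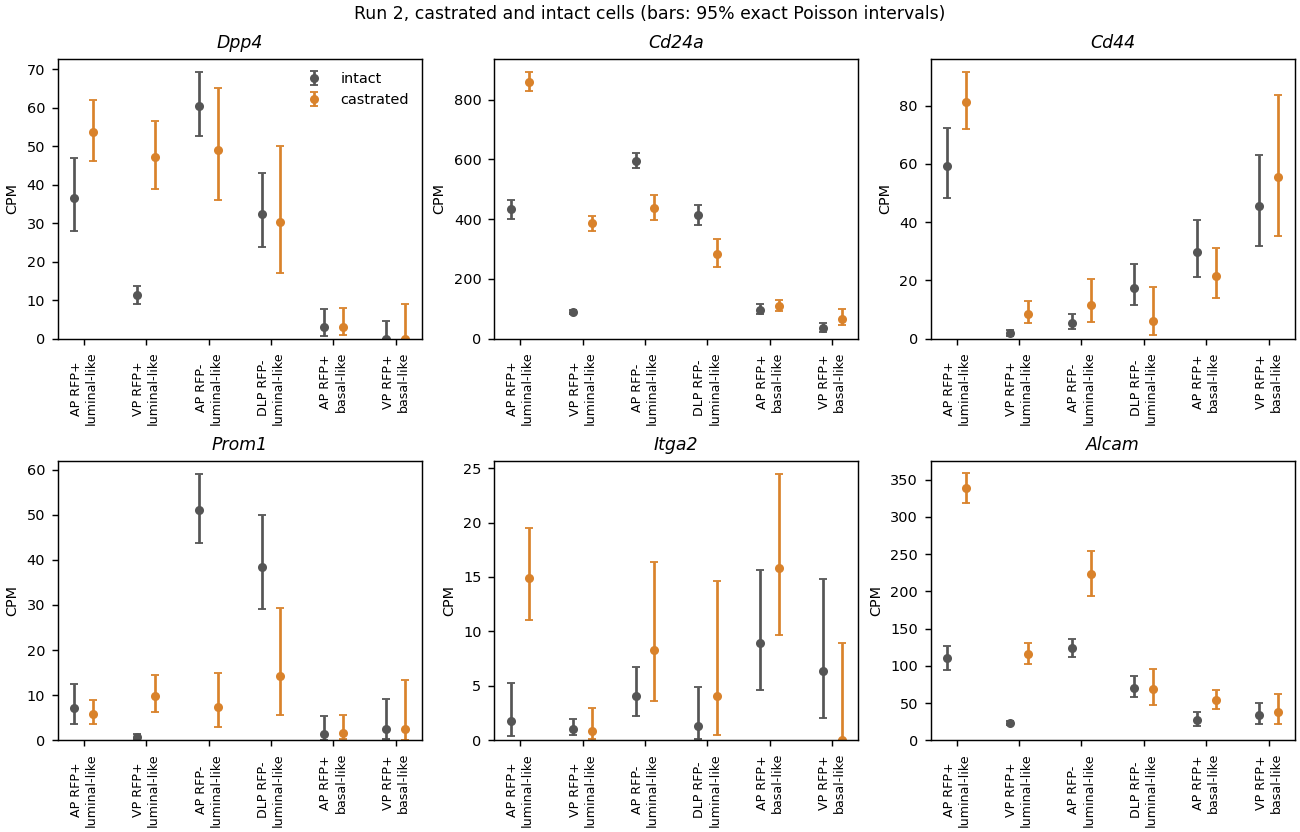
CPM of 6 members (vertical axis) in intact and castrated cells of run 2, with 95% exact Poisson intervals, by population on the horizontal axis. Alcam is above its intact level in the 3 AP populations and in VP RFP+ luminal-like cells, and Prom1 is below it in AP RFP- luminal-like cells.

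The explant series follows urogenital sinus epithelium through culture with androgen, in 1 library with no replicate. Day 0 and day 6 had intervals apart for all 7 members, beside 56% of all genes (16.3% higher and 39.7% lower). Cd44 was at 0.996 CPM (0.569 to 1.62) at day 0, 9.65 (8.18 to 11.3) at day 1, 23.1 (21.1 to 25.2) at day 3 and 31.8 CPM (30 to 33.7) at day 6. Each day lay above the one before. In prostatic-like cells alone, 1 Cd44 UMI was found in 462 cells at day 0 and 996 UMIs in 1962 cells at day 6, at 0.0846 CPM (0.00214 to 0.472) and 34.0 CPM (31.9 to 36.2).

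Kit, the receptor tyrosine kinase, was highest at day 0. It was at 10.7 CPM (9.16 to 12.4) at day 0, then 3.55 (2.69 to 4.62), 2.37 (1.77 to 3.11) and 2.69 CPM (2.19 to 3.28). The last 3 days overlap with their neighbours in time, and prostatic-like cells gave 11.7, 2.92, 1.97 and 2.97 CPM. Alcam and Cd24a were also lower on later days. Alcam went from 142 CPM (136 to 148.2) to 118, 72.8 and 60.7 CPM (58.2 to 63.3), and Cd24a from 495 CPM (484 to 506) to 308, 307 and 246 CPM (241 to 251). Without the cells above the 95th percentile of UMIs, Alcam was at 108 CPM (102 to 115) at day 0 and 105 CPM (99.1 to 111) at day 1, which overlap, and at 59.3 CPM at day 6. By class, Alcam at days 0 and 6 was at 172 and 53.4 CPM in prostatic-like, 35.5 and 22.8 CPM in mesonephric-like and 191 and 196 CPM in mesenchyme-like cells. The fall was not shared by every class. Another 2 classes had fewer than 10 cells at day 0. An unnamed cluster marked by Psca and Krt4, kept apart from prostatic-like cells, had the highest Alcam by class on days 1, 3 and 6. It was at 259 and 270 CPM on days 3 and 6, below its day 1 level. Urothelium-like cells were at 50.5, 71.8 and 73.3 CPM on days 1, 3 and 6.

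Prom1 and Itga2 were somewhat higher at day 6. Prom1 was at 9.89, 10.8, 11.7 and 13.2 CPM and Itga2 at 1.87, 3.81, 3.42 and 3.49 CPM, and without the cells above the 95th percentile of UMIs neither had intervals apart between day 0 and day 6. Dpp4 was at 8.84, 4.95, 3.33 and 2.44 CPM, but in prostatic-like cells it was at 0.846, 2.24, 0.893 and 0.615 CPM, and day 0 and day 6 overlapped. In mesonephric-like cells Dpp4 was at 35.2, 28.2, 33.5 and 19.7 CPM, and these were 198 of 701 cells at day 0 and 279 of 2470 at day 6. Among prostatic-like cells, 6 of 7 members were apart between day 0 and day 6, beside 50.1% of all genes (16.9% higher and 33.2% lower).

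**Figure D5:**
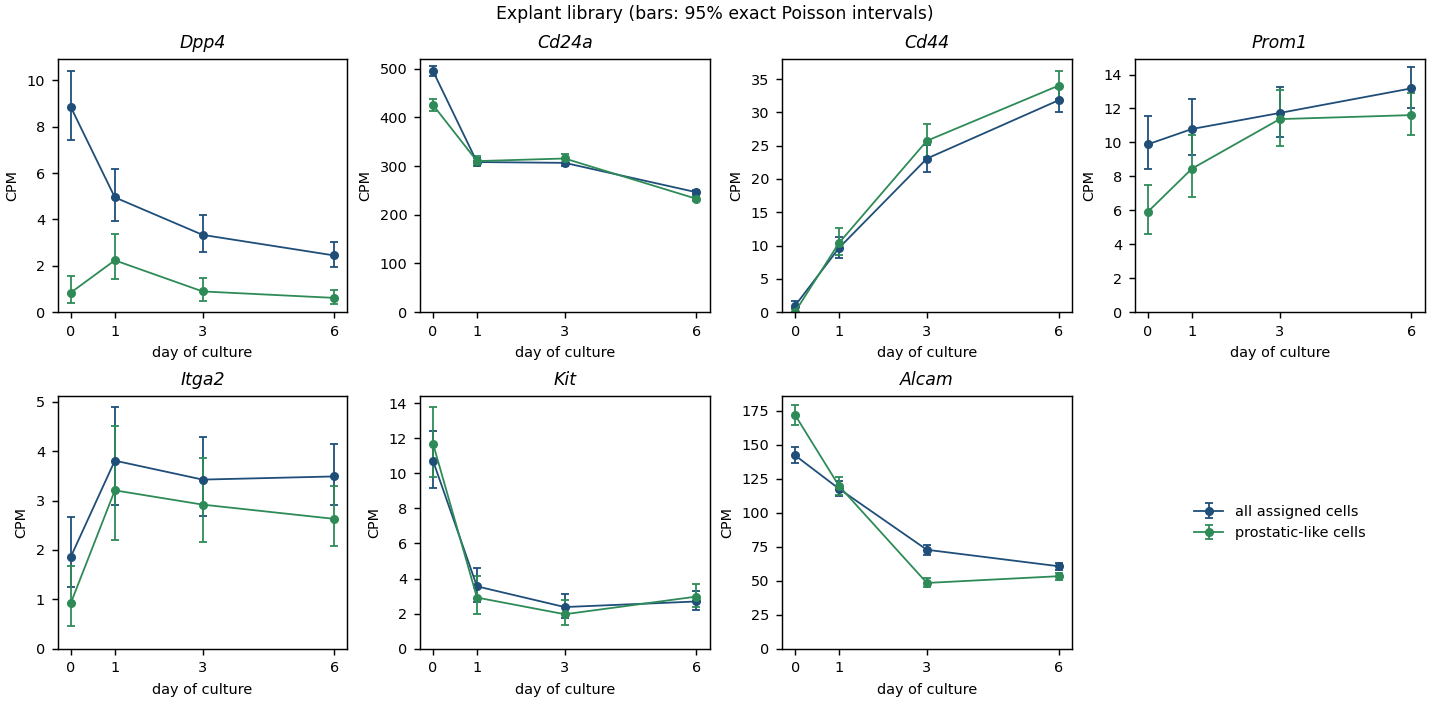
CPM of each member (vertical axis) by day of culture (horizontal axis) in all assigned explant cells and in prostatic-like cells, with 95% exact Poisson intervals. Cd44 climbs from 0.996 to 31.8 CPM in all cells, while Kit, Alcam and Cd24a are highest at day 0.

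Ptprc, which encodes the leukocyte antigen CD45, gives a reference for cells of blood origin. A Ptprc UMI was found in 361 adult cells, of which 338 were RFP+, 338 lay in hematopoietic-like clusters and 88.1% were in run 2. Run 3 had 3 such cells, so the reference rests mainly on run 2, and it pools intact and castrated mice. In AP RFP+ hematopoietic-like cells of run 2, Kit was at 45.8 CPM (36.5 to 56.8) in 224 intact and 133 CPM (103 to 169) in 47 castrated cells. Cd44 was at 162 CPM (144 to 181) and 97.2 CPM (71.9 to 128) in these cells, while the intervals of Dpp4 and Alcam overlapped. Cd24a was higher in the castrated cells, at 157 CPM in intact and 246 CPM in castrated cells, with intervals apart. Levels of some members in the reference thus differed between intact and castrated cells of this run. The class pools several clusters, and their shares by treatment were not examined. Treatment and type of leukocyte therefore cannot be told apart here. In that run, Ptprc-positive cells held 139.9 CPM of Cd44 (127 to 154), 96.3 CPM of Dpp4 (85.5 to 108), 187 CPM of Alcam (172 to 203) and 64.4 CPM of Kit (55.6 to 74.2), whereas cells without a Ptprc UMI held 39.3, 28.1, 102 and 0.526 CPM.

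Over the 3 runs, Kit, Cd44, Dpp4 and Alcam were higher in the Ptprc-positive cells, by ratios of 154, 4.79, 4.05 and 2.44, and Cd24a and Prom1 were lower, with ratios of 0.652 and 0.268. Intervals of Itga2 overlapped. Intervals were apart for 50.7% of all genes (25.6% higher and 25.1% lower), and no test was made between cells. In run 1 the Ptprc-positive cells were at 238 CPM of Cd44 (192 to 291) but at 10.1 CPM of Dpp4 (2.76 to 25.9), beside 19.4 CPM in the other cells of that run, and at 2.53 CPM of Kit from 1 UMI.

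Kit in the adult was found mostly in blood cells. Of 117 cells with a Kit UMI, from intact and castrated mice together, 95 were hematopoietic-like, and these held 85.7% of the 223 Kit UMIs. A Kit UMI was found in 20 of 4099 epithelial cells. The highest value in an intact epithelial population, 6.75 CPM in RFP- luminal-like cells of the DLP in run 2, came from 2 cells with 7 and 3 UMIs. Neuroendocrine markers summed to 164 CPM in that population, with 1 of 4 detected and Syp and Calca at 0, and none of the Lum-D-like or Lum-B-like cells with a Kit UMI held a UMI of those markers. The hematopoietic markers summed to 119 CPM there, with 5 of 7 detected, against 2.09 and 8.96 CPM in runs 1 and 3. A Ptprc UMI was found in 1 of 2 Lum-B-like and 1 of 4 Lum-D-like cells with a Kit UMI. The part of leukocyte RNA in that value was not tested. In intact Lum-A-like cells Kit had 0 UMIs among 26400316, which at a floor of 3 counts allows a level of up to 0.114 CPM.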

How the data were processed

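Per the labels and the study's methods, the authors made 10x Genomics 3′ v3 libraries and ran Cell Ranger 3.1.0 on mm10 (GRCm38), and they deposited unnormalized UMI counts, 31053 genes by cell, with counts of the MULTI-seq barcodes. The submitters' processing notes also name Seurat 3.1.5.

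Adult cells with more than 750 and fewer than 7500 detected genes and under 10% mitochondrial UMIs were kept, and explant cells with more than 1000 genes and under 7.5%. The methods word the upper limit in UMIs, which was an alternative. Cells with exactly 1 barcode were used. Cells with more than 1 (326, 962, 452 and 823 per library) were removed as doublets, and no doublet caller was run. The paper reports that the barcode of intact DLP RFP+ cells failed in runs 1 and 2, and used DoubletFinder for those runs. Doublets with such unlabelled cells can therefore remain here as single cells of other populations. Seurat 5.3.0 in R 4.3.3 gave clusters without the 7 members among the variable genes, and 63 cells with endothelial marker UMIs in a basal cluster were set apart.

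Within each run, UMI counts were added up over the cells of a population (at least 10 cells) and compared with edgeR 4.0.16 (TMM, filterByExpr, quasi-likelihood, Benjamini-Hochberg over all genes, threshold 0.05). SE is the log2 fold change over the root of F. DESeq2 1.42.0, other scaling and filters, cell limits, clusters at resolution 0.6, leaving out each run and a block for run were alternatives. The runs pair the samples, since both groups of a run came from the same pool of mice, and deviations from group means correlated at 0.0365 to 0.667 within runs. On simulated data for the AP luminal-like comparison, with 8887 genes, edgeR called 88% of genes made to differ 4-fold and 15% at 2-fold, and 6.36% of its calls were false. The text names the 7 members throughout, of 2 further lists the genes past the threshold with the largest change in each direction, and for each member the 2 genes most like it. Itgb1, Ly6a, Itgb4 and Cd9 were chosen after their values were seen, and 1 gene of the lists is not reported here. Members and lists were chosen with earlier results of these data known.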

Additional observations from a re-analysis of the deposited data

Results flagged for a closer look

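Cd44 stood out because its RFP difference differed between the compartments of the AP. The RFP+ minus RFP- difference was larger by 2.96 ± 0.65 log2 units in luminal-like than in basal-like cells (edgeR interaction, adjusted p = 0.0178, 3 runs per group). The separate differences were 2.61 in luminal-like and -0.40 in basal-like cells. In luminal-like cells RFP+ was above RFP- in 3 of 3 runs, and in basal-like cells it was below in 3 of 3 runs. The interaction was computed once, without alternatives, and no cause was tested.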

How the results depend on the processing

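In the edgeR comparisons, counts of called genes moved more than the calls of the members did. By RFP, AP luminal-like cells gave 287 with fewer than 7500 UMIs per cell and 817 to 1630 when a run was left out (2182 as reported), and AP basal-like cells gave 4 with no filter and 41 with a replicate block for run. VP luminal-like cells gave 68 with DESeq2, 198 with no filter, 144 with the block, 54 without cells above the 95th percentile of UMIs and 0 to 64 without 1 run. RFP- luminal-like cells gave 1799 with no filter and 353 to 923 without 1 run for AP against VP. AP against DLP gave 116 with DESeq2, 328 with no filter, 550 with the block, 1 with fewer than 7500 UMIs and 2 to 38 without 1 run. RFP+ basal-like cells gave 79, 248, 508, 0 and 0 to 47 under the same settings. Castration gave 3 member values apart with fewer than 7500 UMIs, over the populations that kept at least 10 cells. As reported, VP RFP+ luminal-like cells alone had 5 apart. Over the alternative settings for castration, 64 member values stayed within the interval of the reported ratio and 18 moved outside it. In each of the 5 comparisons with called genes, leaving out run 2 or run 3 lowered the count by more than 1.5 times, and run 2 gave the lowest or joint lowest. The cause was not tested. Among member tests, 250 alternative values kept their side of the threshold, 5 passed that had not and 7 no longer passed. Direction was compared only for members that were called, and it was kept in those counted as unchanged. The block changed the call of 2 members, Prom1 in the VP and Cd24a in basal-like cells, and no other. The limit of 7500 UMIs could not be fitted for VP luminal-like cells by RFP or for AP against VP. Keeping the cells with endothelial marker UMIs as basal-like was chosen after the data were seen and changed no member's call. A few cells changed cluster with the numerical library behind the clustering. Under another such assignment, which is not the one reported, Cd24a in castrated AP RFP+ basal-like cells had an interval above that of intact cells. The castrated sum then held a net of very few more cells but many more Cd24a UMIs, so the overlap given above is not firm. Depth limits Kit and Itga2, which rest on few UMIs in most epithelial sums.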

Other observations

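Co-detection differed between pairs of markers. UMIs of both Dpp4 and Cd24a were found in 254 of 398 Lum-B-like, 192 of 362 Lum-E/F-like 1 and 16 of 2025 basal-like cells, and UMIs of both Alcam and Prom1 in 209 Lum-B-like cells. Cells with UMIs of Prom1, Cd44 and Kit at once numbered 1 of 362 Lum-E/F-like 1 cells, 0 of 2025 basal-like, 0 of 494 Lum-D-like cells and 0 of 398 cells of the Lum-B-like cluster, and 17 of 3791 prostatic-like explant cells. UMIs of both Prom1 and Cd44 were found in 43 Lum-E/F-like 1, 7 Lum-D-like cells and 18 cells of the Lum-B-like cluster. UMIs of both Cd44 and Itga2 were found in 91 of 362 Lum-E/F-like 1 cells and 41 of 2025 basal-like cells. Depth differs between these classes, and the counts are not thinned. Adult cells of intact and castrated mice are counted together here, and 19 of the 362 Lum-E/F-like 1 cells came from intact mice.

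Across 31 intact sums by run, lobe, RFP and compartment, the genes of at least 20 CPM with the most similar pattern of log2(CPM + 1) were named for each member, among 4841 genes, with Pearson's r. For Dpp4 they were Tst (0.96) and Bcl2l14 (0.96), for Cd24a Plac8 (0.94) and Cldn8 (0.93), and for Cd44 Cyfip1 (0.94) and Dab2ip (0.94). Prom1 was most like Rnf149 (0.92) and Man1a (0.91), and Alcam most like Ehf (0.95) and Sft2d2 (0.91). Itga2 with Tdp2 (0.77) and Pim1 (0.75) and Kit with Kdm5b (0.54) and Cd74 (0.48) were less alike. Sums of 1 run share a library, and no p is given.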
